A study of Homo sapiens with 6 samples.

Results

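Keratins of basal and luminal identity were examined in MDAMB468 cells with raised IGFBP2 and in control cells. Of 10 keratin symbols listed (KRT5, KRT6A, KRT7, KRT8, KRT14, KRT16, KRT17, KRT18, KRT19 and KRT81), 9 were matched by Ensembl identifier to a row among the 10487 genes of the expression table. KRT6A (ENSG00000205420) was not among the listed genes. The table held 8 further keratins (KRT6B, KRT10, KRT15, KRT23, KRT34, KRT75, KRT80 and KRT86), which gave 17 measured keratins in all. No listed keratin passed the test between the groups, although KRT81 and KRT7 were lower with IGFBP2 overexpression at an unadjusted p under 0.05.

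MDAMB468 is an established line from a human triple negative breast cancer, a class that lacks the estrogen and progesterone receptors and amplified HER2. The 3 control libraries came from MDAMB468 cells whose genotype was labelled wild type. The 3 IGFBP2 overexpression libraries came from MDAMB468 cells selected and sorted after lentiviral delivery of a catalytically inactive Cas9 fused to activator domains (VHP) and of a guide to the IGFBP2 promoter. No treatment was given to either group. Whether the control cells carried the activator is not given in the sources used here, so effects of the activator, of selection and of IGFBP2 itself cannot be told apart. Replicates are described as biological, but not as separately engineered lines, and the p-values measure the spread between these libraries.

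RNA was sequenced from the 3′ end of polyadenylated transcripts, so each transcript gives reads near its end whatever its length, and levels are given as normalised read counts (CPM) without division by length. Depth, as reads on the 10487 genes, was 4579587, 3530444 and 2497353 for control replicates 1, 2 and 3. For overexpression replicates 1, 2 and 3 it was 2547997, 3068198 and 3069734. IGFBP2, the activated gene, stood at 93.5, 87.3 and 136 CPM in the control libraries and at 566, 1176 and 498 CPM in the overexpression libraries. The groups did not overlap, and the log2 fold change of 2.73 (standard error 0.33, adjusted p = 0.0148, limma) passed the test.

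Keratins are the intermediate filament proteins of epithelial cells. A filament forms from pairs of a type I and a type II keratin, and cells of different layers use different pairs. In the breast, luminal cells are known for KRT8 (type II) with KRT18 (type I), together with KRT7 and KRT19, while basal and myoepithelial cells are known for KRT5 (type II) with KRT14 (type I) and KRT17. KRT6A and KRT16 are induced in wounded epidermis, and KRT81 is a keratin of the hair cortex. Staining for KRT5 and KRT14 is commonly used to recognise basal-like breast tumours.

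Positions are those of GENCODE 44 on GRCh38. The type II keratins lie together on chromosome 12, with KRT18 as the one type I gene among them, and the remaining type I keratins lie together on chromosome 17. The 9 measured keratins of chromosome 12 span 52168996 to 52952906, and the 8 of chromosome 17 span 40818117 to 41624842. KRT5 stands for the type II basal keratins in the sequence shown here, because among the RefSeq promoter entries it was the one of a member that began at the canonical start. The 250 bases before its RefSeq start (chr12:52520395-52520644, minus strand, GRCh38.p14) are printed 5′ to 3′, with the capitals marking ATAAAA, a core of the TATA element.

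KRT5: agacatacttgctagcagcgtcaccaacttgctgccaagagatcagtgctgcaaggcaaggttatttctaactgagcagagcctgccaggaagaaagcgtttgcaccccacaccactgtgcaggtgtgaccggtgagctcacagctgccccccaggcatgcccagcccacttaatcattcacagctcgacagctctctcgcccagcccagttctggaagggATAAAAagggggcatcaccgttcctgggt

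The match to ATAAAA began 29 bases before the start, and 14.8% of 35093 RefSeq promoter windows of 250 bases held it on either strand. GGGCGG, the core of an SP1 motif, was not found on either strand of this window and occurred in 42.6% of all windows. Likewise not found were CCAAT, the motif of NF-Y (32% of windows), TGANTCA, that of AP-1 (6.57%), and GCCNNNGGC, that of AP-2 (19.8%). With a single match, no motifs overlapped. A match of letters is a description of the window and not a bound site.

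None of the luminal keratins passed the test, and among them KRT19 was the most abundant. KRT19 (ENSG00000171345, chromosome 17, 41523617 to 41528308, minus strand), the smallest keratin and one without the usual tail domain, stood at 2900, 2041 and 2882 CPM in control replicates 1, 2 and 3. With IGFBP2 overexpression it stood at 3043, 3198 and 2243 CPM. The groups overlapped, since overexpression replicate 3 lay below 2 of the control libraries. Means were 2608 ± 491 and 2828 ± 513 CPM (SD, n = 3 each). This gave a log2 fold change of 0.12 with a standard error of 0.23 (adjusted p = 0.876, limma with Benjamini-Hochberg adjustment), and its 95% interval ran from -0.40 to 0.63. KRT19 ranked 35 of all listed genes by its mean control level.

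KRT8 and KRT18, the simple epithelial pair, ranked the libraries alike at both ends. KRT8 (ENSG00000170421, chromosome 12, 52897187 to 52949954, minus strand) was measured at 721, 331 and 434 CPM in control cells and at 443, 387 and 478 CPM in overexpression cells. KRT18 (ENSG00000111057, chromosome 12, 52948871 to 52952906, plus strand) was measured at 794, 510 and 575 CPM in control cells and at 527, 596 and 615 CPM in overexpression cells. Control replicate 1 was the highest library and control replicate 2 the lowest for both genes, and the overexpression libraries lay between them. The log2 fold change was -0.11 for KRT8 (standard error 0.28, 95% interval -0.75 to 0.53, adjusted p = 0.908). It was -0.09 for KRT18 (standard error 0.21, 95% interval -0.58 to 0.40, adjusted p = 0.904). The annotated spans of these genes overlap on opposite strands at their 5′ starts, away from the 3′ ends that were sequenced.

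KRT7 (ENSG00000135480, chromosome 12, 52232520 to 52252186, plus strand), a type II keratin of ducts and glands, was the one member whose groups did not overlap. It was measured at 758, 888 and 775 CPM in control cells and at 505, 576 and 690 CPM in overexpression cells. Each overexpression library lay below each control library. Means were 807 ± 70.8 and 590 ± 93.4 CPM (SD, n = 3 each). For KRT7 the log2 fold change was -0.46 with a standard error of 0.19 and a 95% interval of -0.90 to -0.02, and it did not pass the test across all genes (adjusted p = 0.362, limma). An exact two-sided permutation test of 3 libraries against 3 cannot give a p below 0.1.

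Basal keratins showed no common direction. KRT5 (ENSG00000186081, chromosome 12, 52514575 to 52520530, minus strand), whose promoter window is printed here, had 471, 249 and 317 CPM in control cells and 540, 529 and 372 CPM in overexpression cells. Of the 9 pairings of an overexpression library with a control library, KRT5 was higher with overexpression in 8, the exception being overexpression replicate 3 against control replicate 1. Means were 346 ± 114 and 480 ± 94.0 CPM (SD, n = 3 each), and the log2 fold change of 0.50 (standard error 0.27, 95% interval -0.11 to 1.12) did not pass the test (adjusted p = 0.475, limma).

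KRT14 (ENSG00000186847, chromosome 17, 41582279 to 41586895, minus strand), the type I partner of KRT5 in basal cells, was the least abundant member. It had 18.9, 7.23 and 9.30 CPM in control cells and 18.3, 7.75 and 6.24 CPM in overexpression cells, which rested on 19 to 85 reads a library. Replicate 1 was the highest library in both groups, and the groups overlapped throughout. The log2 fold change was -0.15 (standard error 0.42, 95% interval -1.11 to 0.80, adjusted p = 0.918).

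KRT17 (ENSG00000128422, chromosome 17, 41619442 to 41624842, minus strand), a type I keratin of basal cells and of injured skin, was set apart by a single library. Its control levels were 68.6, 85.1 and 209 CPM, and its overexpression levels were 89.3, 85.2 and 74.2 CPM. Control replicate 3 lay far above every other library, while the remaining control libraries and the overexpression libraries overlapped. The log2 fold change was -0.37 (standard error 0.37, 95% interval -1.21 to 0.47, adjusted p = 0.732), and it was 0.11 without control replicate 3.

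KRT16 (ENSG00000186832, chromosome 17, 41609778 to 41615899, minus strand), the wound-induced type I keratin, had 122, 65.6 and 53.8 CPM in control cells and 73.7, 106 and 107 CPM in overexpression cells. Control replicate 1 was the highest of the 6 libraries, and the groups overlapped. The log2 fold change was 0.31 (standard error 0.31, 95% interval -0.39 to 1.02, adjusted p = 0.729). For KRT16 it was 0.07 without control replicate 3 and 0.65 without control replicate 1. Its partner KRT6A, as stated above, had no row.

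KRT81 (ENSG00000205426, chromosome 12, 52285913 to 52291534, minus strand), the hair keratin, showed the largest difference of the members. It stood at 1076, 2876 and 2519 CPM in control cells and at 845, 886 and 1496 CPM in overexpression cells. Control replicates 2 and 3 lay above all overexpression libraries, but control replicate 1 lay below overexpression replicate 3. Means were 2157 ± 953 and 1076 ± 365 CPM (SD, n = 3 each), a ratio of 0.499. For KRT81 the log2 fold change was -0.93 with a standard error of 0.38 and a 95% interval of -1.80 to -0.06. It did not pass the test across all genes (unadjusted p = 0.0383, adjusted p = 0.344, limma). KRT81 ranked 47 of all listed genes by control level, so in control cells a hair keratin stood next to KRT19 among the keratins. Over the 6 libraries, the genes whose log2 values were most alike to those of KRT81 were COX5B, a mitochondrial respiratory chain subunit (Pearson r = 0.995), MTMR3, a phosphoinositide phosphatase (r = 0.992), and TMEM134 (r = 0.990). These were the highest of all listed genes, and 6 points that share library depth make them a description only. Pearson r takes no account of the size of a change. The log2 fold changes of COX5B, MTMR3 and TMEM134 were -0.11, -0.57 and -0.16, each smaller in size than that of KRT81.

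**Figure D1:**
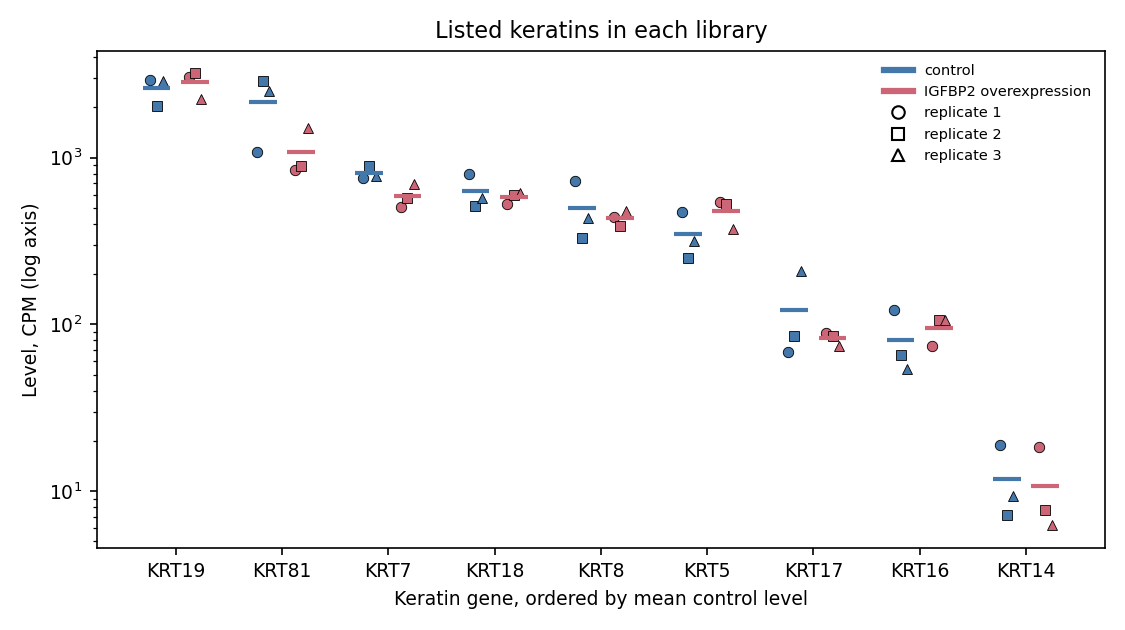
Level of the 9 measured members in each library, in CPM on a log axis, for the 3 control and the 3 IGFBP2 overexpression libraries, with circles, squares and triangles for replicates 1, 2 and 3 and lines for group means. KRT7 is the one gene whose groups do not overlap, and KRT81 spans 845 to 2876 CPM.

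Across the 9 members, 0 were called at an adjusted p under 0.05, where 66 of 10487 genes (0.629%) were called, 45 higher and 21 lower. The count of members was also 0 with limma voom on the recovered reads, which called 1.34% of all genes, and with a mean-variance trend, which called 1.53%. At an unadjusted p under 0.05 there were 2 of 9 members, KRT81 and KRT7, both lower, where 13% of all genes reached that level. Groups did not overlap for 1 of 9 members, where 18% of all genes did not overlap. With 9 members these counts are 1 or 2 genes each, and no departure from the share of all genes was shown. The median log2 fold change was -0.11 over the members, with 3 above and 6 below 0, against a median of 9.82e-05 over all genes. Without control replicate 1 the members' median was 0.20, with 6 above and 3 below 0, and without control replicate 2 it was -0.36, with 2 above and 7 below. Their median absolute log2 fold change was 0.31, against 0.21 over all genes.

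**Figure D2:**
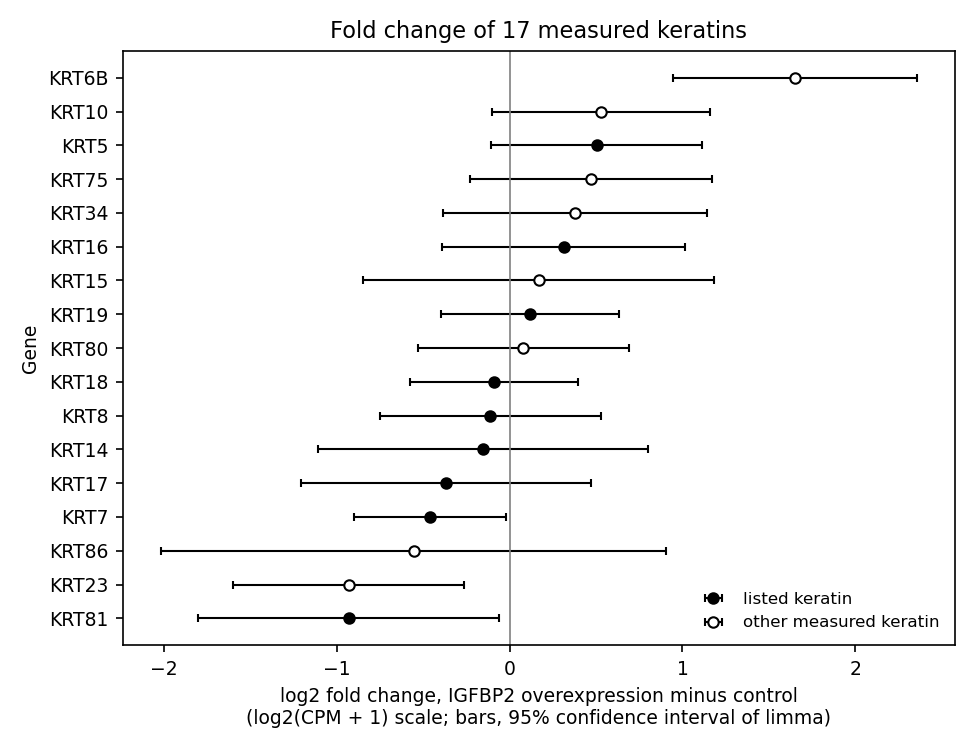
log2 fold change of IGFBP2 overexpression against control on the log2(CPM + 1) scale for all 17 measured keratins, with filled points for listed and open points for other keratins and bars for 95% intervals from limma. The intervals of KRT81, KRT7, KRT23 and KRT6B leave out 0, but no keratin passed the adjusted threshold of 0.05.

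The order of levels in control cells was KRT19, KRT81, KRT7, KRT18, KRT8, KRT5, KRT17, KRT16 and KRT14. Among neighbours in that order, the libraries of KRT81 and KRT7, of KRT5 and KRT17, and of KRT16 and KRT14 did not overlap. The other neighbours overlapped. Beyond neighbours, all control libraries of KRT7 lay above those of KRT8 and KRT5, and those of KRT18 above those of KRT5. In overexpression cells KRT19 lay above KRT81 in every library, and KRT81 above KRT7. The luminal keratins KRT7, KRT8, KRT18 and KRT19 summed to 5173, 3770 and 4667 CPM in control and to 4519, 4757 and 4026 CPM in overexpression cells. KRT5, KRT14 and KRT17 summed to 558, 342 and 536 CPM in control and to 647, 622 and 452 CPM in overexpression cells. Both sums overlapped between the groups. The log2 ratio of the basal to the luminal sum was -3.21, -3.46 and -3.12 in control and -2.80, -2.93 and -3.15 in overexpression cells, so luminal keratin RNA exceeded basal keratin RNA in every library. In RNA from a whole culture, fewer cells with a keratin and less of its RNA per cell cannot be told apart.

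All 9 members together summed to 6929, 7053 and 7776 CPM in control cells and to 6084, 6370 and 6081 CPM in overexpression cells. These sums did not overlap, with means of 7252 ± 457 and 6178 ± 166 CPM (SD, n = 3 each). Without KRT81, a split chosen after its values were seen, the sums were 5853, 4177 and 5257 CPM in control and 5239, 5484 and 4585 CPM in overexpression cells. Those sums overlapped, and their means were 5095 ± 850 and 5103 ± 465 CPM. The lower mean total with overexpression thus rested on KRT81. The separation of the totals did not rest on KRT81 alone. In control replicate 1, KRT81 (1076 CPM) lay below overexpression replicate 3 (1496 CPM), but the sum without KRT81 was the highest of all libraries. Over all 17 measured keratins, KRT81 made up 14.4%, 38.6% and 30.7% of keratin CPM in control libraries and 12.7%, 12.9% and 23.3% in overexpression libraries. KRT19 made up 38.9%, 27.4% and 35.2% in control and 45.9%, 46.5% and 34.9% in overexpression libraries. Together these 2 keratins held from 53.3% of keratin CPM in control replicate 1 to 65.9% in control replicates 2 and 3. The type II share was 42.2%, 60.4% and 50.5% in control and 37.2%, 36.3% and 49.4% in overexpression libraries, with the highest share in the library with the most KRT81.

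**Figure D3:**
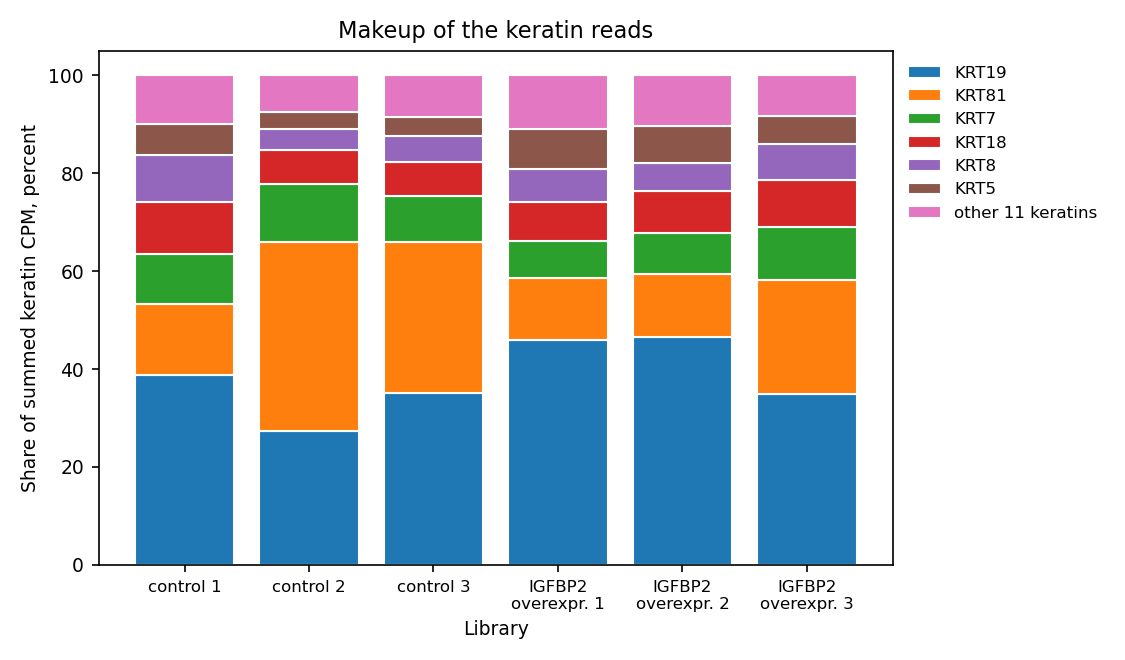
Share of the CPM summed over 17 keratins that 6 abundant keratins and the other 11 together held in each library, in percent, as stacked bars that start at 0. KRT19 and KRT81 together hold 53.3% to 65.9% of each bar, and KRT81 varies from 12.7% to 38.6%.

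Balance between partners was followed library by library, with no test. The ratio of KRT8 to KRT18 was 0.907, 0.650 and 0.755 in control and 0.840, 0.649 and 0.778 in overexpression libraries. The groups overlapped throughout, with mean log2 ratios of -0.39 ± 0.24 and -0.41 ± 0.19 (SD, n = 3 each). KRT5 exceeded its partner KRT14 by 24.95, 34.5 and 34.1 times in control and by 29.4, 68.3 and 59.6 times in overexpression libraries. In every library the type II basal keratin was therefore far more abundant than its type I partner. The ratio of KRT7 to KRT19 was 0.261, 0.435 and 0.269 in control and 0.166, 0.180 and 0.308 in overexpression libraries, and the groups overlapped through overexpression replicate 3.

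Other ratios were chosen after their values were seen. KRT5 to KRT8, a basal against a luminal type II keratin, was 0.653, 0.753 and 0.731 in control and 1.22, 1.37 and 0.777 in overexpression libraries. These groups did not overlap, with mean log2 ratios of -0.49 ± 0.11 and 0.12 ± 0.43 (SD, n = 3 each), though overexpression replicate 3 lay close to the control libraries. KRT81 to KRT7 was 1.42, 3.24 and 3.25 in control and 1.67, 1.54 and 2.17 in overexpression libraries, which overlapped because of control replicate 1. KRT16 to KRT17 was 1.77, 0.771 and 0.257 in control and 0.825, 1.24 and 1.44 in overexpression libraries. Control replicate 1 held the highest and control replicate 3 the lowest of its 6 values.

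**Figure D4:**
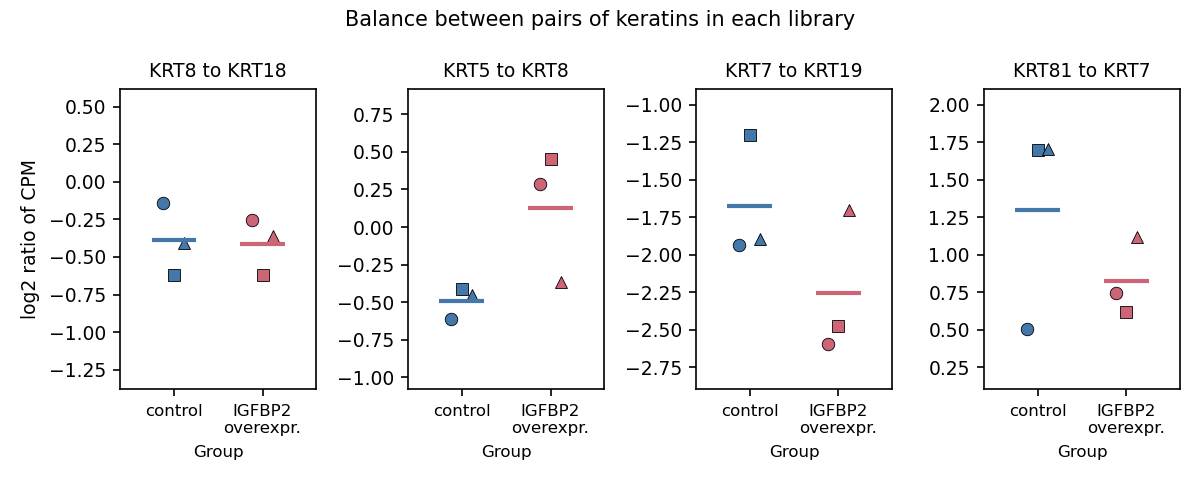
log2 ratio of CPM between members of 4 keratin pairs in each library, with circles, squares and triangles for replicates 1, 2 and 3 and lines for group means. Each panel has its own axis position with the same span, and KRT5 to KRT8 is the one pair shown whose groups do not overlap.

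Of the 8 other measured keratins, 0 were called by limma. KRT6B (ENSG00000185479, chromosome 12, 52446651 to 52452146, minus strand), a close relative of KRT6A from the wound-induced set, was measured at 14.4, 7.79 and 6.47 CPM in control cells and at 32.4, 39.4 and 22.3 CPM in overexpression cells. All overexpression libraries lay above all control libraries, on 16 to 122 reads a library. The log2 fold change of 1.65 (standard error 0.31, 95% interval 0.95 to 2.36) was just short of the threshold (adjusted p = 0.0638, limma). It passed with limma voom (adjusted p = 0.0272) and with a mean-variance trend (adjusted p = 0.0101), and in 5 of 15 alternatives overall.

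KRT23, a type I epithelial keratin, stood at 164, 82.1 and 135 CPM in control and at 78.0, 69.4 and 47.6 CPM in overexpression cells. Its groups did not overlap, and the log2 fold change of -0.93 (standard error 0.30) had an adjusted p of 0.237 (limma). The hair keratin KRT86 stood at 17.8, 107 and 23.0 CPM in control and at 26.1, 12.3 and 41.7 CPM in overexpression cells, with a log2 fold change of -0.56 and a standard error of 0.65. Control replicate 2, the highest library for KRT81, was also the highest for KRT86. KRT10, the keratin of differentiating epidermis, had a log2 fold change of 0.53 (adjusted p = 0.465). The log2 fold changes of KRT15, KRT34, KRT75 and KRT80 were 0.17, 0.38, 0.47 and 0.08. KRT34 was 0.09 without control replicate 1 and 0.81 without control replicate 2. KRT75 was 0.11 without control replicate 3 and 0.74 without control replicate 2. Over these 8 keratins the median was 0.27, and over all 17 it was 0.08.

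Closely related genes can share reads, so the last 400 bases of each keratin's canonical transcript were compared with all other genes' transcripts. Of 326 windows of 75 bases, 14 of KRT14 (4.29%) and 10 of KRT18 (3.07%) also occurred in another gene's transcript, the latter in the pseudogenes KRT18P11 and KRT18P13. No such window was shared by the other measured keratins, including KRT81, KRT86 and KRT6B. KRT81 lies within the annotated span of KRT86 on the opposite strand, and the span of KRT86 also overlaps the end of KRT7 on the same strand. The strand setting used in counting is not given in the sources used here. Reads in these overlaps could be counted for another of these genes or for none, and the part of this in their levels was not tested. KRT81 exceeded KRT86 by 26.8 to 109 times in the 6 libraries. Of the 6 other listed genes within 100 kb of a measured keratin, 0 were called, with log2 fold changes from -0.18 to 0.33 on chromosome 12 and from -0.16 to 0.08 on chromosome 17.

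Genes that act with keratins were followed in lists, and in each list the called genes and those with the smallest p were named. Their counts are read against the 0.629% of all genes that were called, 45 higher and 21 lower. Of 12 measured keratin-associated proteins (13 listed), 1 rose and 0 fell (0.629% of all genes called), with a median log2 fold change of -0.04. HSPB1, a small heat shock protein that binds intermediate filaments, was measured at 359, 273 and 422 CPM in control and at 785, 864 and 890 CPM in overexpression cells. It rose by a log2 fold change of 1.29 (standard error 0.21, adjusted p = 0.0424, limma), and it passed the test in 0 of the 6 fits that left out a library. It also missed the threshold with a pseudocount of 0.1 (adjusted p = 0.0619). CRYAB, another small heat shock protein, had 3.77, 16.4 and 27.1 CPM in control and 1.56, 0.323 and 1.64 CPM in overexpression cells. A single read was worth 0.390, 0.323 and 0.328 CPM in overexpression replicates 1, 2 and 3, so CRYAB rested on few reads there. For CRYAB the log2 fold change was -2.68 (adjusted p = 0.1004, limma), with the groups apart in the opposite direction to HSPB1. That value ran from -3.49 with a pseudocount of 0.1 to -1.57 with one of 5, and it passed with a mean-variance trend (adjusted p = 0.0253) and without control replicate 1 (adjusted p = 0.0203). KRTCAP2 had a log2 fold change of 0.61 (adjusted p = 0.229).

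The desmosome and plakin genes, which anchor keratin filaments at the cell border, had 0 of 12 measured genes called (18 listed) and a median of -0.13. EPPK1, epiplakin, had a log2 fold change of -0.95 (adjusted p = 0.197), DST, a plakin of hemidesmosomes, -0.56 (adjusted p = 0.236) and EVPL, envoplakin, -0.42 (adjusted p = 0.538). DSP, desmoplakin, was the most abundant of them, with a mean of 732 CPM. Of the 8 measured genes for other intermediate filaments (14 listed), 0 were called, with a median of 0.07. VIM, vimentin, the filament of mesenchymal cells, stood at 435, 274 and 92.6 CPM in control and at 712, 646 and 371 CPM in overexpression cells. Overexpression replicate 3 lay below control replicate 1, and the log2 fold change of 1.31 (standard error 0.51) did not pass the test (adjusted p = 0.320). It was 0.68 without control replicate 3 and 1.79 without control replicate 1. NES, nestin, stood at 31.7, 15.6 and 30.3 CPM in control and at 63.2, 67.5 and 49.3 CPM in overexpression cells, with a log2 fold change of 1.23 (adjusted p = 0.121). It passed with limma voom (adjusted p = 0.0289). NEFH, a neurofilament, had a log2 fold change of -1.34 (adjusted p = 0.294).

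Transcription factors known to act on keratin genes had 0 of 15 measured genes called (20 listed) and a median of -0.07. TP63, KLF4, GRHL3, HOPX and GLI2 were not among the listed genes. RUNX1 had a log2 fold change of 0.93 (adjusted p = 0.289), RUNX3 0.96 (adjusted p = 0.299) and EHF, an epithelial ETS factor, -1.40 (adjusted p = 0.204). Of 14 measured squamous and wound genes (30 listed), 1 rose and 0 fell (0.629% of all genes called), with a median of -0.21. With limma voom 1 rose and 1 fell, where 1.34% of all genes were called. PI3, elafin, an elastase inhibitor of inflamed skin, stood at 14.4, 18.1 and 31.1 CPM in control and at 69.4, 69.1 and 65.0 CPM in overexpression cells. It rose by a log2 fold change of 1.70 (standard error 0.27, adjusted p = 0.0416), but it passed in 1 of the 6 fits that left out a library and missed the threshold with a pseudocount of 0.1 (adjusted p = 0.0601). KLK5, a skin protease, stood at 422, 429 and 318 CPM in control and at 207, 219 and 262 CPM in overexpression cells, with a log2 fold change of -0.76 (adjusted p = 0.175). It passed with limma voom (adjusted p = 0.0401). SERPINB5 had a log2 fold change of 1.11 (adjusted p = 0.264).

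Markers of breast cell layers other than keratins were read beside them. Of 20 measured luminal markers (29 listed), 0 rose and 1 fell (0.629% of all genes called), with a median of -0.13, and with limma voom 0 were called. SPDEF, an ETS factor of luminal cells, had 6.66, 13.9 and 12.9 CPM in control and 1.56, 3.23 and 2.63 CPM in overexpression cells. Its overexpression values, like those of CRYAB, rested on few reads. SPDEF fell by 1.78 on the log2 scale (standard error 0.30, adjusted p = 0.0433, limma), but it missed the threshold with limma voom (adjusted p = 0.105). It also missed it with a pseudocount of 0.1 (adjusted p = 0.0673), and passed in 1 of the 6 fits that left out a library. Its log2 fold change ran from -2.12 with a pseudocount of 0.1 to -1.09 with one of 5. ELF5, a factor of luminal progenitors, had a log2 fold change of -1.65 (adjusted p = 0.0669). For ELF5 it ran from -2.13 with a pseudocount of 0.1 to -0.87 with one of 5. Groups did not overlap for 7 of the 20, 1 higher and 6 lower, where 18% of all genes did not overlap. The same count was 4 of 12 keratin-associated proteins (3 higher, 1 lower), 3 of 14 squamous and wound genes and 2 of 14 basal markers. It was 2 of 12 desmosome and plakin genes, 1 of 8 other intermediate filaments and 1 of 15 keratin gene regulators. FOXA1, ESR1, PGR, TFF1, TFF3, AGR2, AGR3 and LTF were among the luminal markers without a row, and EPCAM, with a mean of 377 CPM, was the most abundant luminal marker.

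Of 14 measured basal markers (29 listed), 0 were called (0.629% of all genes), with a median of 0.13. ID4, a repressor of helix-loop-helix factors, had a log2 fold change of -1.24 (adjusted p = 0.229), and MME, also known as CD10, one of -0.88 (adjusted p = 0.297). EGFR was the most abundant, with a mean of 1099 CPM, and TP63, SOX10, SNAI2, ACTA2, TAGLN, CNN1, MYH11 and COL17A1 were not among the listed genes. The cells thus carried luminal keratins and EGFR together, while TP63 and the smooth muscle genes ACTA2, TAGLN, CNN1 and MYH11 had no row. Summed over its measured genes, the basal list held 3355, 3579 and 2780 CPM in control and 4159, 3903 and 3352 CPM in overexpression libraries, and the luminal list held 2036 to 2743 CPM over the 6 libraries, with overlapping groups in both lists. VIM, DSC2, EHF and ELF3 each stand on more than one list.

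Markers of cell types foreign to an epithelial line were near absent. Of 10 fibroblast markers 1 was listed, COL1A1, at 13.8, 12.2 and 27.5 CPM in control and 14.0, 9.36 and 15.8 CPM in overexpression cells, and the groups overlapped. None of 10 immune and 8 endothelial markers was among the listed genes.

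**Figure D5:**
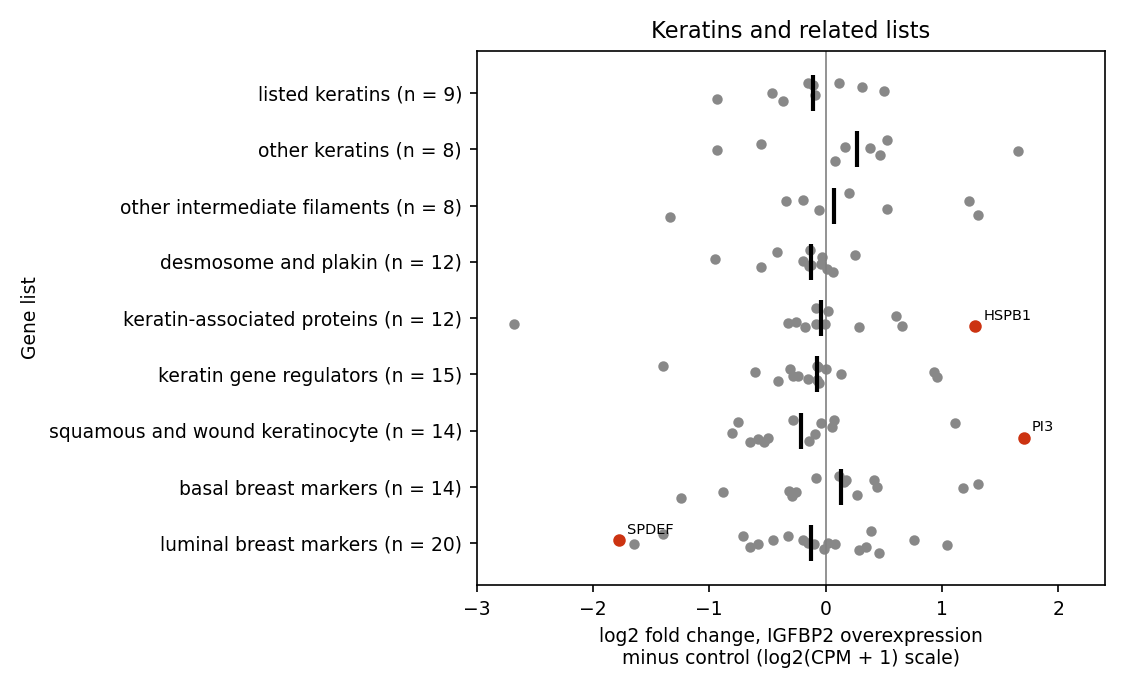
log2 fold change of IGFBP2 overexpression against control on the log2(CPM + 1) scale for each measured gene of the keratin lists and of 7 related lists. Points are genes, short lines are list medians and red points passed limma's adjusted threshold of 0.05, which HSPB1 and PI3 did above 0 and SPDEF below 0.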

How the data were processed

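Total RNA from 3 control and 3 IGFBP2 overexpression replicates was sequenced from the 3′ end. The authors demultiplexed with bcl2fastq, trimmed with bbduk, aligned to hg38 with STAR, counted with htseq-count (HTSeq 0.9.1 in the submitters' processing notes), normalized with edgeR and dropped genes whose average CPM did not exceed 5 in any condition. The deposited values are log2(CPM + 1), and no value of the paper's own comparisons was used.

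CPM was 2 to the power of the value, less the pseudocount of 1. Whole reads were recovered for 100% of values at a tolerance of 0.01 reads. limma 3.58.1 (R 4.3.3, lmFit and eBayes without a trend) was fitted to all 10487 genes with group as the one term. P-values were adjusted by Benjamini-Hochberg over all genes, at a threshold of 0.05, and intervals are limma's 95% intervals. The fit was tested on simulated data. GENCODE 44 names matched 10462 identifiers. Tables were made in Python 3.11.15.

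The members and lists were chosen with earlier results of these data known. Genes named are all measured keratins, IGFBP2, the called genes of each list with the smallest p-values up to 3, neighbours within 100 kb as counts, and the 3 genes most alike to the member with the largest change. Not every gene so chosen is reported here. Counts of keratins and lists under other settings, fits of named list genes and sums without KRT81 were added after the data were seen. RefSeq promoters matched KRT5 and KRT8. The entry of KRT8 starts far from its canonical start and is not shown.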

Additional observations from a re-analysis of the deposited data

How the results depend on the processing

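Directions and calls were recomputed under 15 alternatives, and no listed keratin was called in any of them. An adjusted p under 0.01 is stricter than the main threshold, so it could call no listed keratin either. The number of genes called, 66, became 141 with limma voom, 160 with a mean-variance trend, 37 with a pseudocount of 0.1, 129 with a pseudocount of 5 and 6 at an adjusted p under 0.01. Leaving out a single library moved it to between 12 and 79 genes, with 12 without overexpression replicate 1, 13 without overexpression replicate 2 and 17 without control replicate 3.

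IGFBP2 stayed past the threshold in all 15, at log2 fold changes of 2.35 to 2.97. KRT81 ranged from -1.37 to -0.66, KRT7 from -0.58 to -0.35, KRT5 from 0.29 to 0.75 and KRT6B from 1.33 to 1.96. KRT6B also passed with a pseudocount of 5, with an average CPM over 10 and without control replicate 1. Leaving out 1 library gave 11 changes of sign, in 8 of the 17 keratins. Without control replicate 1, KRT8 was 0.20, KRT14 0.22 and KRT18 0.095. Without control replicate 2, KRT19 was -0.049, KRT15 -0.11, KRT80 -0.21 and KRT86 0.23. Without control replicate 3, KRT17 was 0.11. KRT15 was -0.08 without overexpression replicate 1 and -0.09 without overexpression replicate 2, and KRT14 was 0.13 without overexpression replicate 3. The ranges over single libraries left out were -0.36 to 0.20 for KRT8, -0.58 to 0.22 for KRT14, -0.69 to 0.11 for KRT17, -0.23 to 0.095 for KRT18, -0.049 to 0.28 for KRT19, -0.11 to 0.67 for KRT15, -0.21 to 0.32 for KRT80 and -1.04 to 0.23 for KRT86. The cause of these changes was not tested. Members whose groups did not overlap numbered 1 to 4 with a library left out. The 4 were KRT5, KRT7, KRT16 and KRT81 without control replicate 1, where 30.5% of all genes did not overlap, and KRT5, KRT7, KRT19 and KRT81 without overexpression replicate 3, where 30.2% did not.

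Deviations of same-numbered libraries from their group means correlated at 0.172, -0.064 and 0.0842 across genes. Those of differently numbered libraries correlated at -0.175 to 0.0853. With 3 libraries a group, these values cannot decide whether same-numbered libraries were paired. With the replicate number as a block, 55 genes and 0 of the 9 members were called, and HSPB1 (adjusted p = 0.0579) and PI3 (adjusted p = 0.0509) missed the threshold while ELF5 passed it (adjusted p = 0.0376). A looser filter on low values was not run, since the listed genes are already filtered, and the p-values rest on 3 libraries a group.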
